A study of Mus musculus with 9 samples.

Results

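Poly(A) RNA of macrophages from the synovial lining was compared with that of macrophages from the interstitial synovium across all genes, as 3 sequencing libraries against 3. These 6 libraries are 6 of the 9 in the series and were chosen by their labels alone. The other 3, from cultured bone marrow macrophages, were left out of the comparison. Both groups came from hind paw synovial tissue of healthy mice of the Cx3cr1-GFP strain, in which green fluorescent protein (GFP) reports the locus of the fractalkine receptor Cx3cr1. Cells positive for CD45, CD11b and F4/80 were taken by flow sorting, the GFP-positive fraction as lining (libraries A, B and C) and the GFP-negative fraction as interstitial (D, E and F). The groups therefore rest on the reporter and not on position in the tissue, and the labels give neither the mice's age nor their sex, nor whether the reporter was carried on 1 or both chromosomes. Nor do they say whether the libraries of a group came from separate animals, or whether a lining and an interstitial library share animals, so p-values measure only the spread between these libraries.

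The synovium is the membrane that encloses the joint cavity. Its macrophages are known to form a layer at the surface that faces the joint fluid and to lie scattered, often along vessels, in the tissue beneath. Such resident macrophages clear debris and dead cells, and shape the matrix and the immune response of the joint.

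Total counts were 2194920 to 11137451 per lining library and 2238261 to 10807462 per interstitial library, with B and E the deepest of their groups. Levels are given as CPM, a gene's count relative to its library's total after scaling by trimmed mean of M values, and 3 counts, the floor used here, correspond to 0.266 to 1.44 CPM in a library. Values of a gene follow the order A, B, C and D, E, F. The first principal component of log2 CPM, with 40.1% of the variance, placed every lining library (23.0 to 40.6) above every interstitial library (-68.8 to -13.3). The second, with 27.6%, separated libraries within each group, with A and D at one end (45.8 and 34.7) and F at the other (-48.3). Calls were followed through 15 alternative fits: without each library in turn, with all 9 libraries, with RLE size factors, by DESeq2, by limma-voom, with no filter, with a filter on mean CPM, on counts thinned to the smallest library, with a depth term that sets B and E apart, and without C and F together. A call is said to be lost where the adjusted p was no longer under 0.05. The sort genes Ptprc, Itgam and Adgre1, which encode CD45, CD11b and F4/80, were present in all 6 libraries and did not pass the test. By limma-voom, however, Adgre1 was called higher in lining (log2 fold change 0.56, adjusted p = 0.0455). Ptprc measured 369.7, 437 and 520.3 CPM in lining and 371, 524 and 459.8 in interstitial libraries. Csf1r, the receptor that macrophages need to survive, measured 6137, 6148 and 5143 CPM in lining and 6732, 5052 and 3992 in interstitial libraries. Of 15 sort and pan-macrophage genes, all tested, only the endosomal glycoprotein gene Cd68 was called, and it was higher in lining (log2 fold change 0.81 ± 0.19 SE, adjusted p = 0.0371). That call was lost without A, B, C, E or F (adjusted p up to 0.212) and with a depth term, while 4 of the 15 were called without D. Of the 15, DESeq2 called 3 higher, limma-voom 5, and the fit with all 9 libraries 2. Of all 10830 genes tested, the main fit called 255 higher, DESeq2 373 and limma-voom 435. The fit with all 9 libraries called 473 of 12610 higher, and the fit without D 240 of 11588.

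Of 10830 genes that passed the filter on low counts, 366 (3.38%) differed between lining and interstitial libraries at an edgeR adjusted p under 0.05. Of these, 255 (2.35%) were higher in lining and 111 (1.02%) were lower. A change of at least 2-fold was measured for 191 of the higher and 95 of the lower genes, at least 4-fold for 67 and 43, and at least 16-fold for 21 and 13. The median log2 fold change over all genes tested was -0.004. In every one of the 366 called genes the 3 libraries of one group lay outside the range of the other 3. Over all genes tested, 1185 (10.9%) had every lining library above every interstitial library and 1005 (9.28%) had every one below. All but 2 of the called genes encode proteins, as do 10490 of the 10830 genes tested. The number of calls depended on single libraries, with 117 higher and 48 lower without A, 120 and 51 without B, 148 and 62 without E, and 275 and 161 without F.

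**Figure D1:**
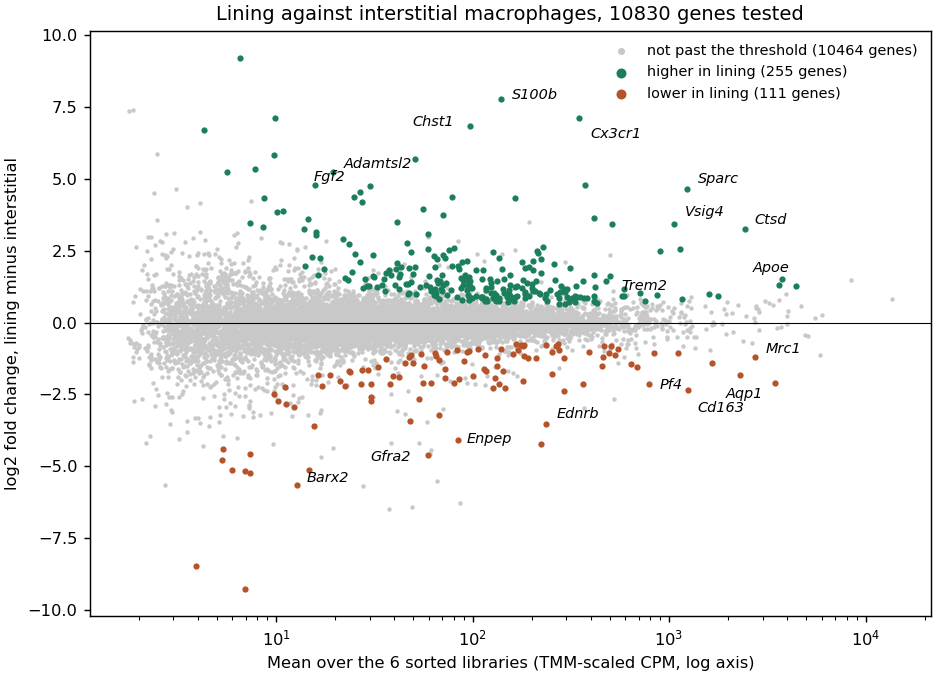
Each point is a gene, placed by its mean level over the 6 sorted libraries (CPM, log axis) and its log2 fold change, lining minus interstitial, with called genes in colour. The 255 genes called higher include Cx3cr1, Sparc, Ctsd and Vsig4, and the 111 called lower include Cd163, Aqp1, Gfra2 and Ednrb.

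In both populations 5 marker genes of synovial macrophages, chosen with earlier results of these data known, were read as a description and no test. Cx3cr1, whose reporter defined the sort, measured 678, 751 and 655 CPM in lining and 2.63, 4.17 and 7.73 in interstitial libraries. This difference (138-fold, log2 fold change 7.11 ± 0.32 SE, adjusted p = 1.26e-07) checks the sort and is no separate finding. Vsig4, which encodes a receptor for complement fragments on resident macrophages, measured 2484, 1716 and 1608 CPM in lining and 267, 171 and 98.3 in interstitial libraries, a 10.9-fold difference (log2 fold change 3.44 ± 0.36 SE, adjusted p = 0.000535). The lowest lining library of Vsig4 stood above the highest interstitial library by a wide margin. Trem2, the gene of a lipid-sensing receptor of macrophages and microglia, measured 895, 756 and 622 CPM in lining and 235, 225 and 275 in interstitial libraries and lay 3.09-fold above interstitial (log2 fold change 1.63 ± 0.20 SE, adjusted p = 0.000384). Cd163, the scavenger receptor for haemoglobin bound to haptoglobin, measured 269.6, 460.4 and 496 CPM in lining and 2612, 2074 and 1608 in interstitial libraries and was 5.13-fold lower (log2 fold change -2.36 ± 0.27 SE, adjusted p = 0.000253). Ednrb, the endothelin receptor type B gene, measured 23.0, 34.4 and 56.0 CPM in lining and 614, 470.3 and 218 in interstitial libraries, which is 11.5-fold lower in lining (log2 fold change -3.52 ± 0.49 SE, adjusted p = 0.0132). Interstitial F was the lowest of its group for Ednrb and still above all lining libraries, and the call was lost without B or E (adjusted p up to 0.0836). The Trem2, Vsig4 and Cd163 calls were kept in each of the 15 alternative fits. Cx3cr1 lies at chr9:119901616-120069879, Vsig4 at chrX:96247203-96293438, Trem2 at chr17:48346401-48354147, Cd163 at chr6:124304656-124330527 and Ednrb at chr14:103814625-103844402 (GRCm38, outermost exon ends).

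Among called protein-coding genes with at least 10 CPM in each library of the higher group, the largest fold differences in favour of lining were in genes of secreted, adhesive and signalling proteins. Chst1, an enzyme that adds sulfate to keratan sulfate and related sugars, measured 229, 186 and 161 CPM in lining and 0, 1.06 and 3.55 in interstitial libraries (115-fold, log2 fold change 6.85 ± 0.57 SE, adjusted p = 0.000384). Its difference was set by near-absence in interstitial cells, and without F the log2 fold change rose to 7.79. Sparc, a matrix-binding glycoprotein, measured 3189, 2116 and 1831 CPM in lining and 69.7, 110.1 and 103 in interstitial libraries (25.1-fold, log2 fold change 4.65 ± 0.29 SE, adjusted p = 1.93e-06). Olfml3, a secreted glycoprotein of the olfactomedin family known from microglia, measured 976, 654 and 541 CPM in lining and 16.7, 37.8 and 21.9 in interstitial libraries (27.6-fold, log2 fold change 4.79 ± 0.35 SE, adjusted p = 5.09e-05). For both genes even the lowest lining library exceeded the highest interstitial library more than 10 times over. Fgf2, basic fibroblast growth factor, measured 61.8, 40.9 and 52.3 CPM in lining and 0.877, 1.95 and 3.34 in interstitial libraries (23.4-fold, log2 fold change 4.55 ± 0.43 SE, adjusted p = 5.16e-05).

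Adamtsl2, a secreted glycoprotein that binds matrix microfibrils, measured 53.2, 27.5 and 33.7 CPM in lining and 0.877, 0.976 and 1.04 in interstitial libraries (37.8-fold, log2 fold change 5.24 ± 0.47 SE, adjusted p = 4.95e-05). Npnt, the integrin ligand nephronectin, measured 38.3, 29.8 and 24.1 CPM in lining and 0, 0.887 and 2.09 in interstitial libraries (log2 fold change 4.78 ± 0.64 SE, adjusted p = 0.000797, and 5.47 without F). Sox4, a transcription factor of the Sox family, measured 74.2, 44.1 and 56.7 CPM in lining and 0, 1.77 and 3.97 in interstitial libraries (log2 fold change 4.76 ± 0.59 SE, adjusted p = 0.00118, and 5.43 without F). These 3 genes were below 4 CPM in every interstitial library. Ecscr, a surface protein first described in endothelial cells, measured 156, 93.7 and 49.0 CPM in lining and 2.63, 2.57 and 0.418 in interstitial libraries (log2 fold change 5.69 ± 0.63 SE, adjusted p = 0.00136, and 6.30 without E). Its lining libraries differed more than 3-fold among themselves, with A the highest.

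Another 3 genes of this group had almost no interstitial counts. The giant cadherin gene Fat3 had 334 counts over the lining libraries against 2 over the interstitial ones, a ratio of 185 with a 95% counting interval from 50.8 to 1532. Its level was 14.8, 22.7 and 21.1 CPM in lining and 0, 0 and 0.418 in interstitial libraries, and its log2 fold change of 7.11 ± 0.95 SE (edgeR adjusted p = 0.000796) became 6.04 without E and 9.84 without F. S100b, a calcium-binding protein known from glia, measured 388, 243 and 202 CPM in lining and 0, 2.31 and 0 in interstitial libraries (log2 fold change 7.78 ± 0.88 SE, adjusted p = 0.013). Its only interstitial counts were in E. The call was lost without B (adjusted p = 0.0782), and the log2 fold change without E was 13.29. Ifitm10, a gene of the interferon-induced transmembrane family, measured 15.3, 18.0 and 13 CPM in lining and 0, 0.710 and 0 in interstitial libraries (log2 fold change 5.36 ± 0.92 SE, adjusted p = 0.00482), with the call lost without B (adjusted p = 0.0788) and a log2 fold change of 9.13 without E. Fat3 without F, and S100b and Ifitm10 without E, had 0 interstitial counts left, so those log2 fold changes are no measured ratios. Below the 10 CPM limit, the myosin heavy chain gene Myh15 had 177 counts in lining and 0 in interstitial libraries, at least 65.3-fold higher against a floor of 3 counts over the interstitial group.

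Under the same 10 CPM limit, the largest differences in the other direction were in 12 genes of receptors, enzymes, channels and regulators. Gfra2, the co-receptor for the neuronal growth factor neurturin, measured 0.958, 5.45 and 6.30 CPM in lining and 146, 93.8 and 104 in interstitial libraries, 24.6-fold lower in lining (log2 fold change -4.62 ± 0.42 SE, adjusted p = 6.66e-05). Enpep, a membrane peptidase that trims angiotensin, measured 12.9, 5.08 and 12.2 CPM in lining and 211, 181 and 82.9 in interstitial libraries, 16.9-fold lower (log2 fold change -4.08 ± 0.48 SE, adjusted p = 0.00196). Coro2b, a coronin that binds actin, measured 7.66, 6.10 and 11.5 CPM in lining and 107, 86.3 and 69.7 in interstitial libraries (10.7-fold lower, log2 fold change -3.42 ± 0.32 SE, adjusted p = 5.16e-05). All 3 were at 69.7 CPM or more in every interstitial library and at 12.9 CPM or less in every lining library. Gprc5c, an orphan receptor, measured 8.62, 16.8 and 12.2 CPM in lining and 164, 86.7 and 116 in interstitial libraries (log2 fold change -3.22 ± 0.31 SE, adjusted p = 6.43e-05). Ltbp4, which tethers latent TGF-beta to the matrix, measured 5.75, 10.7 and 6.30 CPM in lining and 73.7, 47.7 and 37.8 in interstitial libraries (log2 fold change -2.72 ± 0.37 SE, adjusted p = 0.000904). The calls of these 5 genes were kept in every alternative fit.

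The homeobox gene Barx2 measured 0, 0.832 and 0 CPM in lining and 20.2, 13.4 and 42.4 in interstitial libraries (log2 fold change -5.66 ± 0.82 SE, adjusted p = 0.0014), and the small GTPase gene Diras2 measured 0, 1.48 and 0 CPM in lining and 36.0, 24.3 and 26.1 in interstitial libraries (log2 fold change -5.12 ± 0.74 SE, adjusted p = 0.0014). In lining, both had counts in B only, the deepest library, and their log2 fold changes without B were -9.87 and -10.05. With 0 lining counts left, those values are no measured ratios. Clec10a, a lectin for galactose-type sugars, measured 12.5, 26.1 and 27.4 CPM in lining and 741, 275 and 248 in interstitial libraries (log2 fold change -4.22 ± 0.60 SE, adjusted p = 0.0217). Interstitial D was more than 2.5 times the other interstitial libraries for Clec10a, the log2 fold change without D was -3.54, and the call was lost without A, B or C (adjusted p up to 0.102), and with a depth term and without C and F together. Cobll1, a regulator of the actin skeleton, measured 2.39, 3.33 and 2.60 CPM in lining and 19.7, 27.7 and 18.4 in interstitial libraries (log2 fold change -2.94 ± 0.49 SE, adjusted p = 0.00358), with the call lost without E (adjusted p = 0.0594). Kcnq1, a potassium channel gene, measured 0.958, 3.24 and 3.71 CPM in lining and 15.3, 13.8 and 30.1 in interstitial libraries (log2 fold change -2.83 ± 0.60 SE, adjusted p = 0.0188), with the call lost without A, B or F (adjusted p up to 0.122), and with a depth term and without C and F together. Fgd5, an exchange factor that activates a small GTPase, measured 0, 2.13 and 4.82 CPM in lining and 48.7, 27.4 and 10.9 in interstitial libraries (log2 fold change -3.59 ± 0.83 SE, adjusted p = 0.0479, and -4.26 without C). Its call was lost without A, B, C, D or E (adjusted p up to 0.282), and with the mean CPM filter, in thinned counts and with a depth term.

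**Figure D2:**
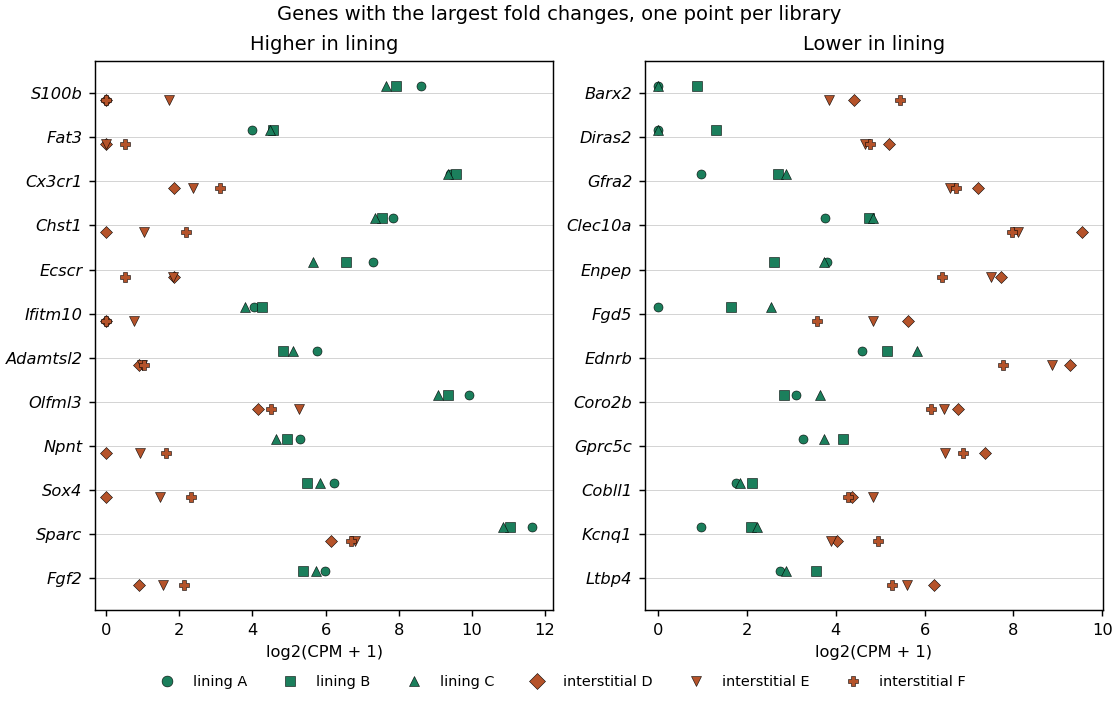
The 12 called protein-coding genes with the largest fold change in each direction among those with at least 10 CPM in each library of the higher group, as log2(CPM + 1), with each point a library (lining A to C in green, interstitial D to F in orange). That the lining and interstitial points do not overlap was part of the rule that chose these 24 genes.

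Called genes were also ranked by the difference in mean CPM, which favours abundant transcripts, and the 8 leading genes higher in lining included Ctsd, Apoe, Timp2, Lrp1, Sparc, Vsig4 and Arsb. Ctsd, the lysosomal protease cathepsin D, measured 5124, 4758 and 3399.8 CPM in lining and 455, 384 and 551 in interstitial libraries, 9.56-fold above interstitial (log2 fold change 3.26 ± 0.24 SE, adjusted p = 1.48e-05). Timp2, an inhibitor of matrix metalloproteinases, measured 6512, 5219 and 4913 CPM in lining and 2257, 1948 and 1550.1 in interstitial libraries, 2.89-fold higher (log2 fold change 1.53 ± 0.22 SE, adjusted p = 0.00136). Arsb, the lysosomal sulfatase that helps to degrade dermatan and chondroitin sulfate, measured 1914, 1421 and 1254 CPM in lining and 276, 296 and 239.7 in interstitial libraries (5.65-fold, log2 fold change 2.5 ± 0.22 SE, adjusted p = 4.52e-05). These 3 kept their calls in every alternative fit. Apoe, the lipid carrier apolipoprotein E, measured 8297, 5674 and 4805 CPM in lining and 3711, 2349 and 1738 in interstitial libraries (2.41-fold, log2 fold change 1.27 ± 0.30 SE, adjusted p = 0.0374), and interstitial D was the nearest to lining. Its call was lost without A, B, E or F (adjusted p up to 0.209) and with a depth term. Lrp1, an endocytic receptor of the LDL receptor family, measured 4171, 6221 and 5136 CPM in lining and 1552, 2598 and 2138 in interstitial libraries (log2 fold change 1.30 ± 0.24 SE, adjusted p = 0.00857), with the call lost without B (adjusted p = 0.0961).

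Among called genes, the 8 with the largest mean CPM difference in favour of interstitial cells were F13a1, Aqp1, Mrc1, Cd163, Cd36, Pf4, Ctsc and Gas7. Aqp1, a water channel, measured 725, 1202 and 1124 CPM in lining and 3206, 3809 and 3715 in interstitial libraries (3.52-fold lower in lining, log2 fold change -1.81 ± 0.23 SE, adjusted p = 0.000573). Pf4, the chemokine CXCL4, measured 237, 333 and 304 CPM in lining and 1911, 1064 and 883 in interstitial libraries (4.40-fold lower, log2 fold change -2.14 ± 0.28 SE, adjusted p = 0.00105). Gas7, an adaptor that bundles actin, measured 258, 432 and 359 CPM in lining and 948, 1139 and 977 in interstitial libraries (2.92-fold lower, log2 fold change -1.54 ± 0.21 SE, adjusted p = 0.00111). These 3 kept their calls in all alternative fits, and interstitial libraries varied most for Pf4. F13a1, the A chain of clotting factor XIII, measured 1562, 1171 and 1163 CPM in lining and 8972, 4824 and 2992 in interstitial libraries (log2 fold change -2.11 ± 0.36 SE, adjusted p = 0.0104), with the call lost without B or C (adjusted p up to 0.07). Mrc1, the mannose receptor, measured 1408, 1615 and 1988 CPM in lining and 5090.2, 3489.6 and 2811 in interstitial libraries (log2 fold change -1.18 ± 0.25 SE, adjusted p = 0.0178), with the call lost without A or B (adjusted p up to 0.145). Cd36, a scavenger receptor for oxidised lipids, measured 839, 808 and 1048 CPM in lining and 3277, 2418 and 1476 in interstitial libraries (log2 fold change -1.41 ± 0.27 SE, adjusted p = 0.0104), with the call lost without A or B (adjusted p up to 0.11). Ctsc, the lysosomal peptidase cathepsin C, measured 743, 746 and 690.5 CPM in lining and 2083, 1468 and 956 in interstitial libraries (log2 fold change -1.05 ± 0.25 SE, adjusted p = 0.0385), with the call lost without A, B, C, D or E (adjusted p up to 0.186) and with a depth term.

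Gene lists of macrophage types were read next, each as a count of called members and a median. The share called in each list is to be read against the share over all genes tested, which was 3.38% in all, 2.35% higher and 1.02% lower. Because the lists were chosen with earlier results of these data known, a share above these is a description and no test. The shares are those of the main fit, and counts under another fit are to be read against that fit's totals. DESeq2 called 373 higher and 245 lower of 10830 genes, and limma-voom 435 and 255. With all 9 libraries 473 were higher and 259 lower of 12610, and with no filter 398 and 268 of 18947. Without single libraries, 117 to 275 were higher and 48 to 161 lower. Of 35 microglia-associated genes 30 were tested, 11 were higher in lining and 0 were lower, and the median log2 fold change was 0.65. The share called, 36.7% of those tested, compares with 3.38% of all genes tested. The 11 included Cx3cr1, Sparc, Itgb5, Ctsd, Olfml3, Golm1, Trem2, Bin1, Tgfbr1 and Cst3, so that several encode lysosomal or matrix proteins and 1 defined the sort. Golm1, a Golgi membrane protein, measured 278, 191 and 177 CPM in lining and 28.1, 42.3 and 45.5 in interstitial libraries (log2 fold change 2.46 ± 0.25 SE, adjusted p = 7.81e-05). Bin1, which bends membranes in endocytosis, measured 466, 359 and 370.1 CPM in lining and 179, 159 and 161 in interstitial libraries (log2 fold change 1.26 ± 0.18 SE, adjusted p = 0.00123). Like every called gene, Golm1 and Bin1 did not overlap between groups. Cst3, the protease inhibitor cystatin C, measured 3057, 2169.6 and 1787 CPM in lining and 1478, 1138 and 1076 in interstitial libraries (log2 fold change 0.93 ± 0.23 SE, adjusted p = 0.0494), with the call lost without A, B, E or F (adjusted p up to 0.287), and with RLE size factors, with the mean CPM filter and with a depth term. Leaving out any single library gave 10 to 13 members higher, with 1 lower without E or without F. DESeq2 called 12 higher and 2 lower, and the fit with no filter 14 and 2. By limma-voom, and also with all 9 libraries, 13 were higher and 1 lower.

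Other genes known from microglia were picked after their values were seen. P2ry12, a purine receptor, measured 389, 278 and 331 CPM in lining and 407, 325 and 165 in interstitial libraries (edgeR adjusted p = 0.901). Tmem119, a membrane protein gene, measured 18.2, 18.5 and 15.6 CPM in lining and 0, 1.33 and 9.81 in interstitial libraries (adjusted p = 0.348), low in all 6 libraries. It was called higher without F (log2 fold change 4.22, adjusted p = 0.0101), without C and F together, by limma-voom (adjusted p = 0.0361) and with no filter (adjusted p = 0.0218). The lectin gene Siglech measured 15.3, 10.6 and 18.2 CPM in lining and 104, 35.1 and 14.2 in interstitial libraries (adjusted p = 0.322), with interstitial D the highest. Siglech was called lower without F (adjusted p = 0.0109), without C and F together, with no filter and by DESeq2. Sall1, a transcription factor gene, had too few counts to be tested. The complement genes C1qa, C1qb and C1qc were abundant in both groups, with adjusted p of 0.335, 0.503 and 0.505. C1qa was called higher without D (adjusted p = 0.0439) and with no filter (adjusted p = 0.0254).

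Of 34 perivascular and Lyve1-type macrophage genes, all tested, 8 were lower in lining and 1 was higher (26.5% called against 3.38% of all genes), with a median log2 fold change of -0.95. The lower members were Cd163, Ccl24, Pf4, F13a1, Cd36, Ednrb, Mrc1 and Clec10a. Ccl24, a chemokine for eosinophils, measured 43.6, 43.2 and 63.4 CPM in lining and 356, 194 and 181 in interstitial libraries (4.87-fold lower, log2 fold change -2.28 ± 0.28 SE, adjusted p = 0.000646). The member that was higher was Ltc4s, leukotriene C4 synthase, at 247, 201 and 142 CPM in lining and 113, 77.7 and 75.4 in interstitial libraries (log2 fold change 1.16 ± 0.24 SE, adjusted p = 0.0167), with the call lost without A, B or E (adjusted p up to 0.113). The number lower was 5 without A and 3 without B, 12 without D and 12 without F, 16 by DESeq2, 14 with all 9 libraries and 13 with no filter. The number higher was 0 without A, B or E, 3 without D and 2 with no filter. Among all genes tested, 111 were lower in the main fit, 48 without A, 51 without B, 128 without D and 161 without F. By DESeq2 245 of all genes were lower, with all 9 libraries 259 and with no filter 268. The name-giving gene Lyve1, a hyaluronan receptor, measured 2265, 1889 and 1878 CPM in lining and 3835, 3280.2 and 2638 in interstitial libraries and did not pass (log2 fold change -0.69 ± 0.21 SE, adjusted p = 0.105), although its groups did not overlap. It was called without F (adjusted p = 0.0251), by DESeq2, by limma-voom and with no filter (adjusted p = 0.0152). Folr2, a folate receptor gene, measured 1305, 873 and 736 CPM in lining and 1301, 724 and 629.7 in interstitial libraries and Timd4, a receptor gene for dying cells, 137, 80.4 and 121 CPM in lining and 189, 99.4 and 65.4 in interstitial libraries, with adjusted p of 0.919 and 0.976. The lectin gene Cd209f measured 0.958, 3.61 and 0 CPM in lining and 349, 89.5 and 76.2 in interstitial libraries and did not pass (log2 fold change -6.26 ± 1.17 SE, adjusted p = 0.084), with interstitial D far above E and F. It was called without D, at a log2 fold change of -5.25 (adjusted p = 0.00261), by DESeq2 (adjusted p = 2.79e-05) and with all 9 libraries (adjusted p = 0.032). Reads of Cd209 family members, whose copies resemble each other, could have been lost in counting.

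**Figure D3:**
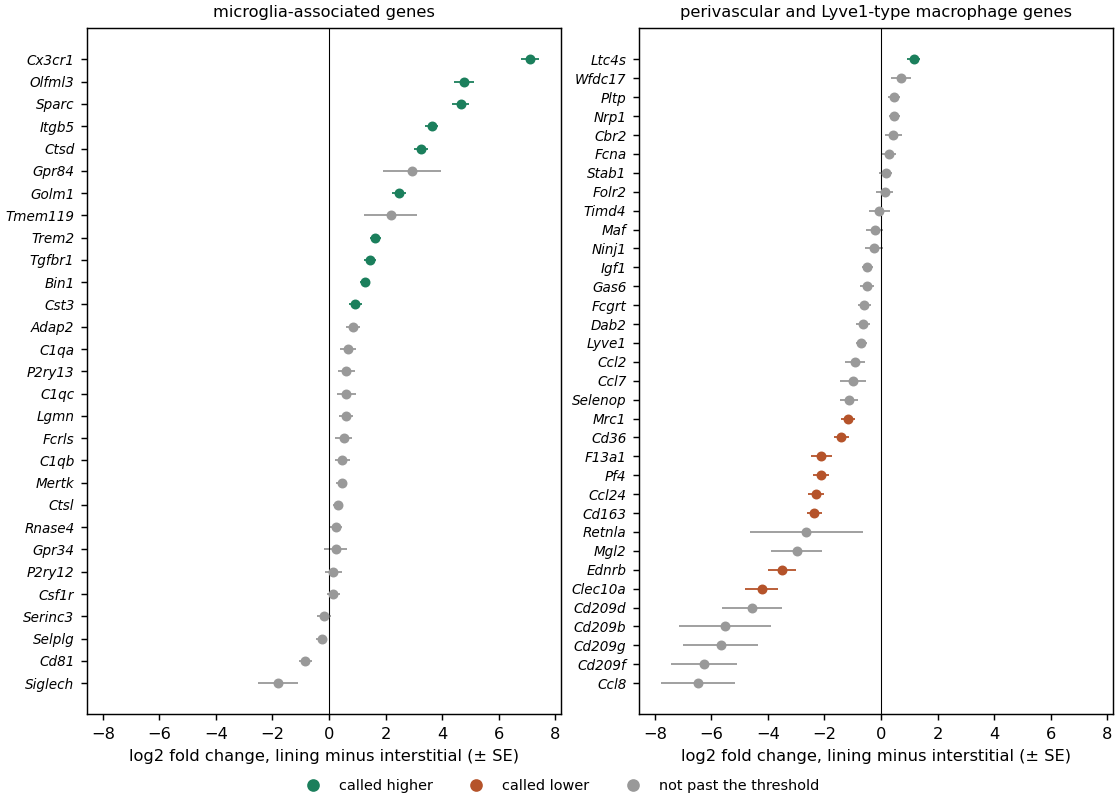
Log2 fold change, lining minus interstitial, with its standard error, for 29 of the 30 tested members of the microglia-associated list (left) and the 34 of the perivascular and Lyve1-type list (right), coloured by call. The called members lie to the right on the left panel, with 10 of the 11 higher genes drawn, and mostly to the left on the right panel, with 8 lower and 1 higher.

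Of 30 antigen-presenting and Ccr2-type macrophage genes, 28 were tested and 0 were called by edgeR, against 3.38% of all genes. At an unadjusted p under 0.05, 2 were higher and 6 lower, against 1433 of all 10830 genes tested, in either direction. DESeq2 called 2 higher and 1 lower, and limma-voom 1 higher and 2 lower. Without D 2 were higher, and without F 1 was higher and 1 lower. With all 9 libraries 1 was higher and 2 lower, and with no filter 1 was higher and 3 lower. The class II gene H2-Ab1 measured 161, 499 and 622 CPM in lining and 342, 706 and 1310.4 in interstitial libraries, and Ccr2, the chemokine receptor of inflammatory monocytes, measured 45.5, 129 and 163 CPM in lining and 52.2, 154 and 98.8 in interstitial libraries. For both genes the lining and interstitial ranges overlapped, with the lowest value in A. Lyz2, lysozyme, measured 19832, 18033 and 14779 CPM in lining and 13286, 9344 and 6852 in interstitial libraries (log2 fold change 0.84 ± 0.27 SE, adjusted p = 0.133). Lyz2 was called higher without D (adjusted p = 0.0164), by DESeq2, by limma-voom and with no filter (adjusted p = 0.00113).

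The promoters of 3 called genes, picked by hand, are shown as examples of motifs that were searched. Each of these genes kept its call in every alternative fit. They are RefSeq promoters (GRCm38.p6), 250 bases that end at the transcript start, 5′ to 3′ on the gene's strand, with the motif in capitals. Ctsd lies on the minus strand (chr7:142387828-142388077) and holds CACGTG, the E-box bound by MITF and TFE factors, at 98 and 245 bases before the start. F11r lies on the plus strand (chr1:171437311-171437560) and holds TGAGTCA, an AP-1 motif, at 109 bases. Pf4 lies on the plus strand (chr5:90772185-90772434) and holds GAGGAAGT, the PU.1 motif, on the opposite strand at 10 bases.
Ctsd: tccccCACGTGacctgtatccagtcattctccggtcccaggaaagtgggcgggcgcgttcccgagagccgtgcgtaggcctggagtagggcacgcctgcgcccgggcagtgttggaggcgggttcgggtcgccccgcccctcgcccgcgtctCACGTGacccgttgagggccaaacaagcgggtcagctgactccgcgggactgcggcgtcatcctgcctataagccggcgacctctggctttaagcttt
F11r: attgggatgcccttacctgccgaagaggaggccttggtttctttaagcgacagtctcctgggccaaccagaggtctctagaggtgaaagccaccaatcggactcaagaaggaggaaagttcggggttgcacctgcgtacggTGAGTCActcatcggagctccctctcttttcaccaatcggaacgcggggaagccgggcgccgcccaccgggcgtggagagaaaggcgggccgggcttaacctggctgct
Pf4: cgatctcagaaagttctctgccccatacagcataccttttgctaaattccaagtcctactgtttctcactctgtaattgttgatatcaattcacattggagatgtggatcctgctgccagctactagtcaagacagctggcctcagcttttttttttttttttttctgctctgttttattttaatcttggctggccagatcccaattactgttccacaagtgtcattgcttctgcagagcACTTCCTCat

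The share of promoters with each motif is given as a description. Promoters were matched for 8595 of the 10830 genes tested, 198 of the 255 higher and 87 of the 111 lower, and searched on both strands. CACGTG was in 8.08% of the higher, 6.90% of the lower and 8.84% of all promoters. GAGGAAGT was in 4.55%, 3.45% and 2.75%, and the AP-1 letters TGACTCA or TGAGTCA in 3.54%, 6.90% and 2.80%. The MAF letters TGCTGA, which can share letters with AP-1, was in 11.1%, 13.8% and 12.2%. The IRF letters GAAANNGAA were in 7.58%, 8.05% and 6.36%, TTGCGCAA of C/EBP in 0.505%, 1.15% and 0.279%, TATAAA in 9.09%, 13.8% and 5.97%, and CCAAT in 32.3%, 33.3% and 36.5%. A match is a string of letters and was not tested as a binding site.

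Matrix proteins, the enzymes of matrix sugars and integrins were taken as 3 lists. Of 37 tested secreted matrix proteins and proteoglycans 18.9% were called, against 3.38% of all genes, and 6 were higher (Sparc, Adamtsl2, Olfml3, Vcan, Thbs2 and Mfge8) and 1, Ltbp4, was lower, with a median of 0.05. Vcan, the large proteoglycan versican, measured 381, 285 and 280.0 CPM in lining and 5.26, 20.7 and 18.0 in interstitial libraries (20.3-fold, log2 fold change 4.34 ± 0.41 SE, adjusted p = 0.000615). Thbs2, thrombospondin 2, measured 41.7, 19.0 and 25.2 CPM in lining and 2.19, 5.68 and 1.67 in interstitial libraries (log2 fold change 3.05 ± 0.55 SE, adjusted p = 0.00677), with the call lost without A (adjusted p = 0.0734) and a log2 fold change of 3.87 without E. Mfge8, which bridges dying cells to integrins, measured 163, 144 and 126 CPM in lining and 79.4, 67.5 and 92.5 in interstitial libraries (log2 fold change 0.86 ± 0.20 SE, adjusted p = 0.0336), with the call lost without A, B, D or E (adjusted p up to 0.178) and with a depth term. Fn1, fibronectin, was the most abundant member but did not pass, at 11515, 10937 and 14864 CPM in lining and 356, 1462 and 11665 in interstitial libraries (adjusted p = 0.772). Interstitial F alone reached the lining level of Fn1. Mmp2, a metalloproteinase and also a fibroblast marker, measured 222, 127 and 99.4 CPM in lining and 4.38, 9.14 and 6.89 in interstitial libraries (20.6-fold, log2 fold change 4.37 ± 0.36 SE, adjusted p = 4.73e-05).

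Of 36 tested enzymes that build, sulfate or degrade glycosaminoglycans, 5 were higher in lining and 0 were lower, with Arsb, Chst1, Extl3 and B4galt7 among the 5 (13.9% called), and the median was 0.36. Extl3, which starts heparan sulfate chains, measured 199, 191 and 195 CPM in lining and 64.5, 74.3 and 76.2 in interstitial libraries (log2 fold change 1.44 ± 0.18 SE, adjusted p = 0.000489). B4galt7, which acts on the linker of all such chains, measured 55.6, 55.3 and 37.1 CPM in lining and 16.7, 19.9 and 22.8 in interstitial libraries (log2 fold change 1.31 ± 0.29 SE, adjusted p = 0.0227), with the call lost without A, B or E (adjusted p up to 0.157) and with a depth term. Sulf2, a sulfatase that edits heparan sulfate, did not pass, at 1788, 1578 and 1413 CPM in lining and 1119, 902 and 802 in interstitial libraries (adjusted p = 0.0595). It was called higher without D (adjusted p = 0.0281), by DESeq2, by limma-voom, with all 9 libraries (adjusted p = 0.0242) and with no filter (adjusted p = 0.00806). Without D 1 member was called lower.

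Of 15 tested integrin chains 3 were higher and 0 lower (20% called). Itgb5 measured 943, 753 and 613 CPM in lining and 57.4, 71.4 and 57.0 in interstitial libraries (12.4-fold, log2 fold change 3.63 ± 0.22 SE, adjusted p = 1.93e-06). Itgav, which pairs with it in the vitronectin receptor, measured 386, 356 and 291 CPM in lining and 74.1, 133 and 104 in interstitial libraries (log2 fold change 1.72 ± 0.22 SE, adjusted p = 0.000666). Itga6, a laminin-binding chain, measured 146, 147 and 194 CPM in lining and 28.9, 56.9 and 50.3 in interstitial libraries (log2 fold change 1.82 ± 0.25 SE, adjusted p = 0.00116). All 3 kept their calls in every alternative fit, and without F the number of chains called higher was 5, and without D 1 was lower. Itgb1 measured 1138, 897 and 922 CPM in lining and 918, 927 and 933 in interstitial libraries (adjusted p = 0.908).

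Among 47 tested immunoglobulin-type receptors 8 were higher in lining and 1 was lower (19.1% called), with a median of 0.11. F11r, the junctional adhesion molecule JAM-A, measured 442, 359 and 295 CPM in lining and 48.7, 70.5 and 82.5 in interstitial libraries (5.4-fold, log2 fold change 2.43 ± 0.23 SE, adjusted p = 5.7e-05). Havcr2, the inhibitory receptor TIM-3, measured 387, 354 and 339 CPM in lining and 37.3, 69.1 and 86.0 in interstitial libraries (5.55-fold, log2 fold change 2.47 ± 0.26 SE, adjusted p = 0.000193). Cd300c2, an activating receptor of the CD300 family, measured 134, 146 and 123 CPM in lining and 40.8, 33.3 and 38.0 in interstitial libraries (log2 fold change 1.85 ± 0.20 SE, adjusted p = 0.000193), and Cd276, the B7-H3 ligand, measured 234, 237 and 196 CPM in lining and 35.1, 61.8 and 86.2 in interstitial libraries (log2 fold change 1.85 ± 0.28 SE, adjusted p = 0.00206). Like every called gene, these 4 did not overlap between groups, and they kept their calls in each alternative fit. Trem2 and Vsig4 are described above. The collagen receptor gene Lair1 (log2 fold change 0.87 ± 0.21 SE, adjusted p = 0.0453) was called higher, with the call lost without A, B, C, D or E (adjusted p up to 0.245), and with RLE size factors and with a depth term. The self-binding receptor gene Cd84 (log2 fold change 0.87 ± 0.21 SE, adjusted p = 0.0377) was also called higher, with the call lost without A, B, C, D or E (adjusted p up to 0.163), and in thinned counts and with a depth term. The single lower member was Siglecg, an inhibitory lectin, at 0, 0.924 and 0 CPM in lining and 3.07, 10.3 and 17.7 in interstitial libraries (log2 fold change -4.39 ± 1.10 SE, adjusted p = 0.048). Its call was lost without A, B or C (adjusted p up to 0.178), and with a depth term and without C and F together, and its log2 fold change without B was -8.60. That last value rests on 0 lining counts and is no measured ratio. Without D 2 receptors of this list were lower.

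C-type lectin receptors, which bind sugars of microbes and of the body's own glycoproteins, were read in the same way. Of 28 tested, 5 were lower in lining, 1 was higher and 22 did not pass (21.4% called against 3.38% of all genes), with a median of -1.11. Clec4a1 measured 43.6, 57.1 and 59.7 CPM in lining and 292, 191 and 136 in interstitial libraries (log2 fold change -1.94 ± 0.27 SE, adjusted p = 0.00118) and Clec4a2 41.2, 54.2 and 58.6 CPM in lining and 146, 124 and 123 in interstitial libraries (log2 fold change -1.34 ± 0.21 SE, adjusted p = 0.00239). Both lay below all interstitial libraries in every lining library, and reads shared by the close Clec4a copies could be lost in counting. Clec2d, a ligand of a natural killer cell receptor, measured 19.2, 25.8 and 36.7 CPM in lining and 92.1, 72.2 and 51.8 in interstitial libraries (log2 fold change -1.39 ± 0.30 SE, adjusted p = 0.0219), with the call lost without A, B, D or E (adjusted p up to 0.142). Clec12a, an inhibitory receptor, was higher at 301, 214 and 234 CPM in lining and 121, 126 and 79.6 in interstitial libraries (log2 fold change 1.2 ± 0.22 SE, adjusted p = 0.00746), with the call lost without A (adjusted p = 0.0585). The number lower was 2 without A, 3 without B and 8 without F, and DESeq2 called 15. Without F 2 were higher. Among all genes tested, 48 were lower without A, 51 without B, 161 without F and 245 by DESeq2. Mgl2, a relative of Clec10a, did not pass, at 21.6, 78.0 and 146 CPM in lining and 524, 326 and 1108 in interstitial libraries (adjusted p = 0.253), but was called by DESeq2 (adjusted p = 0.00686).

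**Figure D4:**
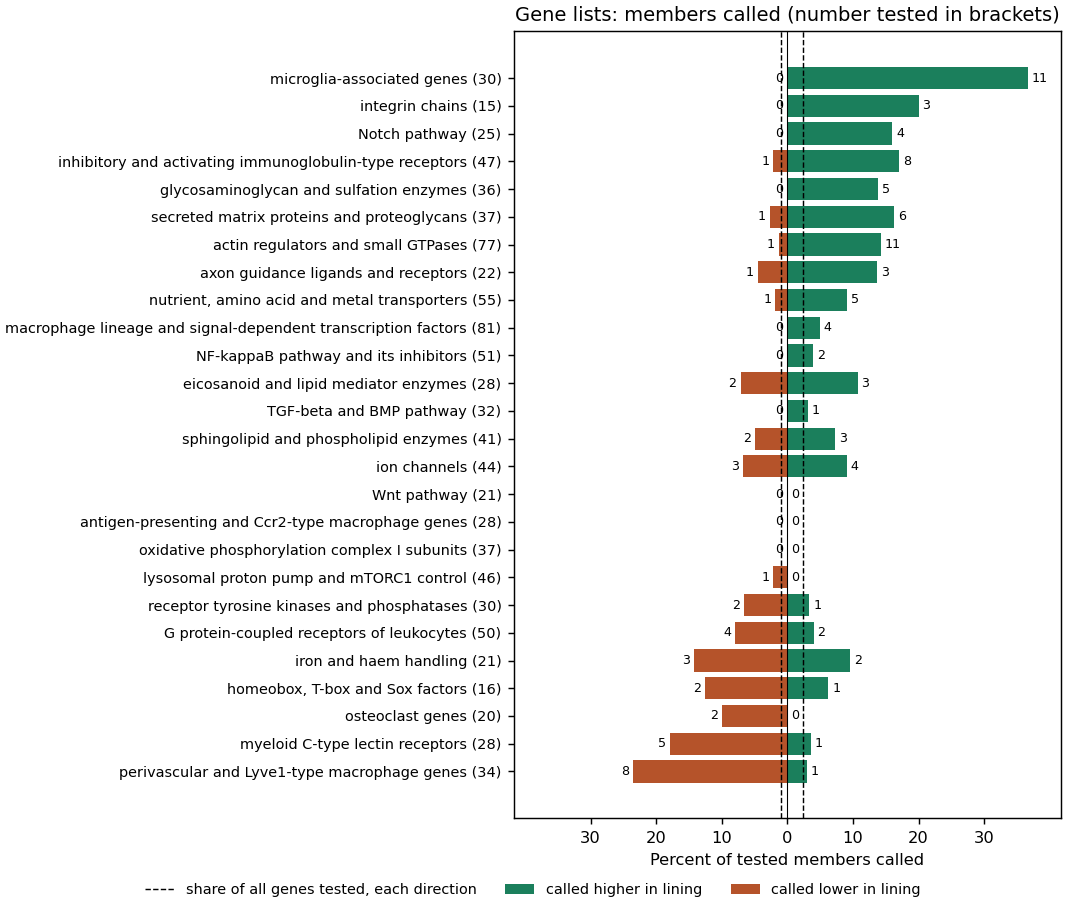
Percent of the tested members of each of 26 gene lists called higher (right, green) or lower (left, orange) in lining, with the number of genes at each bar's end and the tested number in brackets. Dashed lines mark 2.35% and 1.02%, the shares of all genes tested, and the widest bars are the 11 microglia-associated genes higher and the 8 perivascular and Lyve1-type genes lower.

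Signalling pathways were read against the same 3.38%. Of 32 tested TGF-beta and BMP pathway genes (3.12% called), only the receptor Tgfbr1 was called, at 319.9, 312 and 299 CPM in lining and 116, 141 and 80.8 in interstitial libraries (2.76-fold higher, log2 fold change 1.46 ± 0.21 SE, adjusted p = 0.00132), with 2 called without D and 2 without F. Its partner Tgfbr2 measured 1165, 858 and 649.7 CPM in lining and 1314, 924 and 607 in interstitial libraries (adjusted p = 0.947). Of 25 tested Notch pathway genes 4 were higher (16%). The glycosyltransferase Mfng, which tunes Notch receptors, measured 80.9, 59.1 and 60.4 CPM in lining and 8.77, 17.4 and 19.8 in interstitial libraries (log2 fold change 2.08 ± 0.32 SE, adjusted p = 0.002). Its relative Lfng (log2 fold change 1.0 ± 0.24 SE, adjusted p = 0.0385), and the ligases Dtx3 (log2 fold change 1.02 ± 0.25 SE, adjusted p = 0.041) and Dtx4 (log2 fold change 0.98 ± 0.24 SE, adjusted p = 0.0474), differed by about 2-fold. The number of Notch genes called was 1 without A, B, E or F and 2 without D. Lfng was lost without A, B, E or F (adjusted p up to 0.186), and with a depth term and without C and F together, Dtx3 was lost without A, B, C, D, E or F (adjusted p up to 0.236), and with a depth term and without C and F together, and Dtx4 was lost without A, B, D, E or F (adjusted p up to 0.218), and with RLE size factors, with a depth term and without C and F together.

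Of 21 tested Wnt pathway genes 0 were called by edgeR or DESeq2, with 1 at an unadjusted p under 0.05 and 1 called by limma-voom. Among all 10830 genes tested, 1433 had an unadjusted p under 0.05, and limma-voom called 435 higher and 255 lower. With no filter 1 Wnt pathway gene was called lower. Of 22 tested axon guidance genes 3 were higher and 1 lower (18.2% called). Plxna4, a semaphorin receptor, measured 136, 110.3 and 71.9 CPM in lining and 9.21, 14.9 and 12.7 in interstitial libraries (8.42-fold, log2 fold change 3.07 ± 0.30 SE, adjusted p = 6.43e-05). The ligand Sema4a was lower at 57.5, 76.6 and 68.6 CPM in lining and 262, 211 and 181 in interstitial libraries (log2 fold change -1.68 ± 0.20 SE, adjusted p = 0.000442). Both calls were kept in every alternative fit. The semaphorin receptor Plxnb2 (log2 fold change 0.96 ± 0.18 SE, adjusted p = 0.00883) was lost without A or B (adjusted p up to 0.0849). The ephrin receptor Epha2 measured 22.5, 10.3 and 17.4 CPM in lining and 0, 0.710 and 1.46 in interstitial libraries (log2 fold change 4.33 ± 0.81 SE, adjusted p = 0.00897, and 4.95 without F), with the call lost without A or E (adjusted p up to 0.0888) and in limma-voom. Without A a single guidance gene was called higher, and without D 2 were called lower.

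Among 30 tested receptor tyrosine kinases and phosphatases 2 were lower and 1 was higher (10% called). Egfr, the epidermal growth factor receptor, measured 21.6, 19.9 and 21.9 CPM in lining and 134, 80.8 and 58.5 in interstitial libraries (4.30-fold lower in lining, log2 fold change -2.11 ± 0.31 SE, adjusted p = 0.0014). Fgfr1, a receptor for fibroblast growth factors, measured 543, 536 and 556 CPM in lining and 1198, 1133 and 1048 in interstitial libraries (log2 fold change -1.05 ± 0.17 SE, adjusted p = 0.00364), with the call lost without B (adjusted p = 0.06). Fgfr1 varied by little within each group and its ranges were far apart. Ptprm, a phosphatase that binds itself across cell contacts, measured 61.8, 24.9 and 43.8 CPM in lining and 7.89, 7.10 and 14.8 in interstitial libraries (log2 fold change 2.11 ± 0.42 SE, adjusted p = 0.0129), with the call lost without A or E (adjusted p up to 0.101). Without F 2 members were called higher and without A or E 0, and without B 1 was lower.

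Of 50 tested G protein-coupled receptors of leukocytes 2 were higher and 4 lower (12% called). Beside Cx3cr1 and Ednrb they included Mrgpre, an orphan receptor, at 15.3, 12.5 and 13 CPM in lining and 0, 1.06 and 2.30 in interstitial libraries (log2 fold change 3.45 ± 0.83 SE, adjusted p = 0.0399, and 4.18 without F), whose call was lost without A, B, C or E (adjusted p up to 0.195), and in limma-voom and with a depth term. Adgrl2, an adhesion receptor, measured 8.14, 6.29 and 7.42 CPM in lining and 25.4, 30.2 and 21.1 in interstitial libraries (log2 fold change -1.83 ± 0.39 SE, adjusted p = 0.0196), with the call lost without A, B or E (adjusted p up to 0.145) and in thinned counts. The histamine receptor Hrh1 measured 31.1, 28.7 and 26.3 CPM in lining and 89.0, 50.7 and 58.0 in interstitial libraries (log2 fold change -1.19 ± 0.27 SE, adjusted p = 0.0315), with the call lost without A, B, C or D (adjusted p up to 0.154), and with a depth term and without C and F together. Ptafr, the receptor of platelet activating factor, measured 187, 202 and 136 CPM in lining and 325, 276 and 290.4 in interstitial libraries (log2 fold change -0.76 ± 0.19 SE, adjusted p = 0.048), with the call lost without A, B, C, D, E or F (adjusted p up to 0.176), and with a depth term and without C and F together. Without A, B, C or E 1 member was called higher, and the number lower was 1 without A, B or E and 2 without C.

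Of 44 tested ion channels 4 were higher and 3 lower (15.9% called). Among the higher, the calcium channel Cacna1d measured 90.5, 109 and 99.8 CPM in lining and 32.4, 43.7 and 34.0 in interstitial libraries (log2 fold change 1.44 ± 0.22 SE, adjusted p = 0.002). Hvcn1, the proton channel that serves the oxidative burst, measured 201, 137 and 121 CPM in lining and 55.2, 30.5 and 20.3 in interstitial libraries (log2 fold change 2.14 ± 0.35 SE, adjusted p = 0.00703), with the call lost without E (adjusted p = 0.0776). Cacna1a, another calcium channel, measured 57.0, 66.4 and 45.6 CPM in lining and 15.3, 27.2 and 7.31 in interstitial libraries (log2 fold change 1.74 ± 0.41 SE, adjusted p = 0.0377, and 2.34 without E), with the call lost without A, B, C or D (adjusted p up to 0.18) and in thinned counts. Mcoln2, an endolysosomal cation channel, was lower at 5.27, 8.51 and 9.64 CPM in lining and 50, 36.7 and 24.8 in interstitial libraries (log2 fold change -2.22 ± 0.39 SE, adjusted p = 0.00525). Cacna1d and Mcoln2 kept their calls in every alternative fit.

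Of 55 tested transporters 5 were higher and 1 was lower (10.9% called). Slc46a1, the folate and haem transporter of acidic compartments, measured 54.1, 40.0 and 23.0 CPM in lining and 3.51, 7.37 and 3.97 in interstitial libraries (7.47-fold, log2 fold change 2.90 ± 0.44 SE, adjusted p = 0.00173). Slc40a1, the iron exporter ferroportin, was lower at 10.1, 21.6 and 9.64 CPM in lining and 131, 90.9 and 56.8 in interstitial libraries (6.36-fold, log2 fold change -2.67 ± 0.39 SE, adjusted p = 0.00242). These 2 calls were kept in every alternative fit. The zinc and iron importer Slc39a14 (log2 fold change 1.24 ± 0.22 SE, adjusted p = 0.00669) was lost without B (adjusted p = 0.0657). The amino acid carrier Slc7a7 (log2 fold change 1.24 ± 0.24 SE, adjusted p = 0.0102) was lost without A or B (adjusted p up to 0.0663). The number of transporters called higher was 2 without A, 1 without B, 3 without C or E and 8 without F, and 2 were lower without D.

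Of 21 tested genes of iron and haem handling, 3 were lower (Cd163, Slc40a1 and Hmox1) and 2 were higher (Lrp1 and Hebp1), 23.8% in all. Hmox1, which degrades haem, measured 326, 375 and 402 CPM in lining and 712, 596 and 635 in interstitial libraries (log2 fold change -0.82 ± 0.18 SE, adjusted p = 0.0224), with the call lost without A, B, C or D (adjusted p up to 0.17) and with a depth term. Hebp1, a haem-binding protein, measured 95.3, 58.4 and 47.5 CPM in lining and 24.1, 23.2 and 32.2 in interstitial libraries (log2 fold change 1.33 ± 0.30 SE, adjusted p = 0.0279), with the call lost without A, B, D or E (adjusted p up to 0.18) and with a depth term. The ferritin genes did not pass, with adjusted p of 0.5 for Fth1 and 0.735 for Ftl1. Without B 0 members were higher, and without A, D or E 1 was.

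Enzymes of lipid mediators changed in both directions. Of 28 tested, 3 were higher and 2 lower (17.9% called). Lpcat2, which makes platelet activating factor, measured 344, 289 and 240.3 CPM in lining and 61.4, 91.2 and 47.6 in interstitial libraries (4.33-fold, log2 fold change 2.12 ± 0.25 SE, adjusted p = 0.000318). Pla2g15, a lysosomal phospholipase, measured 215, 198 and 203 CPM in lining and 121, 110.0 and 76.8 in interstitial libraries (log2 fold change 1.0 ± 0.20 SE, adjusted p = 0.0132), with the call lost without A, B or E (adjusted p up to 0.0788), and without C and F together. Pla2g2d, a secreted phospholipase, was lower at 0, 0.555 and 0 CPM in lining and 17.1, 10.4 and 7.73 in interstitial libraries (log2 fold change -5.14 ± 1.02 SE, adjusted p = 0.0132). In lining its counts were in B only, its log2 fold change without B was -8.75, and its call was lost without A or E (adjusted p up to 0.0713). The value without B rests on 0 lining counts and is no measured ratio. Ephx1, an epoxide hydrolase, was lower (log2 fold change -0.75 ± 0.19 SE, adjusted p = 0.0453), with the call lost without A, B, C, E or F (adjusted p up to 0.212), and with a depth term and without C and F together. Without A, B or E 1 member was higher, and the number lower was 0 without A or E and 1 without B, C or F.

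Of 41 tested sphingolipid and phospholipid enzymes 3 were higher and 2 lower (12.2% called). St3gal5, which makes the ganglioside GM3, measured 169, 120.3 and 69.3 CPM in lining and 25.9, 32.8 and 16.5 in interstitial libraries (4.72-fold, log2 fold change 2.24 ± 0.35 SE, adjusted p = 0.00392) and kept its call in every alternative fit. Galc, the lysosomal galactosylceramidase, measured 312, 226 and 199.5 CPM in lining and 153, 122 and 98.8 in interstitial libraries (log2 fold change 0.98 ± 0.22 SE, adjusted p = 0.0275), with the call lost without A, B, E or F (adjusted p up to 0.17) and with a depth term. Ugcg, which makes glucosylceramide, was lower at 38.8, 24.3 and 29.3 CPM in lining and 78.9, 57.8 and 61.4 in interstitial libraries (log2 fold change -1.11 ± 0.27 SE, adjusted p = 0.0377), with the call lost without A, B, C, D or E (adjusted p up to 0.212), and with a depth term and without C and F together. Sgms1, a sphingomyelin synthase, was lower (log2 fold change -0.79 ± 0.19 SE, adjusted p = 0.0405), with the call lost without A, B, C, E or F (adjusted p up to 0.222), and with a depth term and without C and F together. The number lower was 0 without A, B or E and 1 without C or F.

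Regulators of actin and small GTPases move and shape the cell. Of 77 tested, 11 were higher and 1 was lower (15.6% called), with a median of 0.18. Myo1f, a myosin of immune cells, measured 375, 446 and 435 CPM in lining and 157, 214 and 181 in interstitial libraries (log2 fold change 1.18 ± 0.18 SE, adjusted p = 0.00222). Dock4, an exchange factor for Rac, measured 121, 101 and 97.2 CPM in lining and 21.9, 45.9 and 30.5 in interstitial libraries (3.18-fold, log2 fold change 1.67 ± 0.27 SE, adjusted p = 0.00296). Vav2, another exchange factor, measured 102, 93.1 and 124 CPM in lining and 44.7, 51.5 and 48.9 in interstitial libraries (log2 fold change 1.13 ± 0.21 SE, adjusted p = 0.00819). These 3 kept their calls without any single library, though Vav2 was lost without C and F together. Elmo1, the partner of Dock proteins in engulfment, measured 348, 379 and 294 CPM in lining and 179.8, 172 and 115 in interstitial libraries (log2 fold change 1.13 ± 0.21 SE, adjusted p = 0.0072), with the call lost without B (adjusted p = 0.0699). The other 7 higher members were the unconventional myosin Myo10, the exchange factors Dock2, Dock8 and Vav1, the actin-binding proteins Cotl1 and Actn1, and Arhgap22, which turns GTPases off. Their log2 fold changes were from 0.82 (Actn1) to 1.82 (Myo10). Myo10 was lost without B (adjusted p = 0.0751), Dock2 was lost without A, B or E (adjusted p up to 0.0773), and Dock8 was lost without A or B (adjusted p up to 0.124). Vav1 was lost without A, B, C or D (adjusted p up to 0.155), and without C and F together, and Cotl1 was lost without A, B or E (adjusted p up to 0.239) and with a depth term. Actn1 was lost without A, B, C, D or E (adjusted p up to 0.221) and with a depth term, and Arhgap22 was lost without A, B, C or F (adjusted p up to 0.24), and without C and F together. The lower member was Arhgap18, another inhibitor of GTPases, at 92.4, 111 and 107 CPM in lining and 286, 237 and 136 in interstitial libraries (log2 fold change -1.08 ± 0.25 SE, adjusted p = 0.0315), with the call lost without A, B, C, D or E (adjusted p up to 0.186) and with a depth term. The number higher was 5 without A and 3 without B, and 2 members were lower without D.

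Of 81 tested transcription factors of the macrophage lineage and of signal responses, 4 were higher and 0 lower. That share, 4.94%, was near the 3.38% of all genes. Cebpa measured 412, 372 and 292 CPM in lining and 217, 157 and 164 in interstitial libraries (log2 fold change 1.0 ± 0.20 SE, adjusted p = 0.0131) and Irf8 130.3, 159 and 148 CPM in lining and 77.2, 82.5 and 74.7 in interstitial libraries (log2 fold change 0.90 ± 0.18 SE, adjusted p = 0.0158), both known as factors of the myeloid lineage. Epas1 measured 26.8, 17.5 and 23.0 CPM in lining and 5.26, 5.24 and 6.47 in interstitial libraries (log2 fold change 1.97 ± 0.44 SE, adjusted p = 0.0244) and Hif1a 189, 195 and 187 CPM in lining and 96.0, 128 and 119.6 in interstitial libraries (log2 fold change 0.73 ± 0.18 SE, adjusted p = 0.0437), both known as factors of the response to low oxygen. Cebpa was lost without A, B or E (adjusted p up to 0.0921), and Irf8 was lost without B, C or E (adjusted p up to 0.13), and without C and F together. Epas1 was lost without A, B, C or E (adjusted p up to 0.145), and in thinned counts, with a depth term and without C and F together, and Hif1a was lost without A, B, C, D, E or F (adjusted p up to 0.2), and with a depth term and without C and F together. The number higher was 1 without A, C or E and 0 without B, and 1 was lower without D.

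Of 16 tested homeobox, T-box and Sox factors, 1 was higher (Sox4) and 2 were lower (Barx2 and Lbx1), 18.8% in all. Lbx1, known from limb muscle and spinal cord, had 0 counts in lining and 206 in interstitial libraries, at least 62.1-fold lower in lining against a floor of 3 counts over the lining group. Its levels were 0, 0 and 0 CPM in lining and 23.2, 10 and 8.35 in interstitial libraries. The vesicle protein gene Mctp2 likewise had 0 counts in lining and 121 in interstitial libraries (at least 36.5-fold lower), with the call lost without A, B or D (adjusted p up to 0.136) and with a depth term.

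Of 51 tested NF-kappaB pathway genes 2, Card9 and Irak2, were higher (3.92%, near the 3.38% of all genes). Card9 (log2 fold change 0.90 ± 0.20 SE, adjusted p = 0.0275) was lost without A, B, D or E (adjusted p up to 0.172), and in thinned counts and with a depth term. Irak2 (log2 fold change 1.08 ± 0.27 SE, adjusted p = 0.0481) was lost without A, B, C, D or E (adjusted p up to 0.184), and with RLE size factors, in thinned counts, with a depth term and without C and F together. The number called was 0 without A, B, D or E and 1 without C. Of 46 tested genes of the lysosomal proton pump and mTORC1 control (2.17% called), the pump subunit Atp6v0d2 was lower at 1.44, 6.38 and 10 CPM in lining and 22.8, 19.6 and 43.0 in interstitial libraries (log2 fold change -2.22 ± 0.56 SE, adjusted p = 0.0486), with the call lost without A, B, E or F (adjusted p up to 0.209), and with the mean CPM filter, with a depth term and without C and F together. Of 20 tested osteoclast genes (10% called), Atp6v0d2 and Ctsk, the bone protease cathepsin K, were lower. Ctsk measured 84.3, 111 and 145 CPM in lining and 176, 332 and 244 in interstitial libraries (log2 fold change -1.15 ± 0.26 SE, adjusted p = 0.0279), with the call lost without A, B or E (adjusted p up to 0.158) and with a depth term. Without A, B or E 0 osteoclast genes were lower and without F 1, while without D, E or F 1 was higher. Of 37 complex I subunits, all tested, 0 were called by edgeR, DESeq2 or limma-voom, while at an unadjusted p below 0.05 there were 1 higher and 1 lower. Of 27 genes of dissociation stress, all tested, 0 were called by edgeR, 1 was lower at an unadjusted p under 0.05, and 0 were called by DESeq2 or limma-voom. Without D 1 of these was called lower. For both lists the unadjusted counts are to be read against 1433 of all 10830 genes tested.

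Markers of other cell types were read beside these results, as the sum of each list in each library. In bulk libraries, fewer cells of a type and less RNA per cell cannot be told apart. Endothelial markers summed to 55.1, 49.2 and 359 CPM in lining A, B and C and to 112, 78.0 and 553 in interstitial D, E and F. Of the 14, 7 were tested and 0 called, though 1 was lower without D, without F, by limma-voom or with all 9 libraries, and 2 by DESeq2 or with no filter. Most of the sum in C and F was Flt1, a vascular growth factor receptor, at 14.4, 9.43 and 303 CPM in lining and 0.877, 6.83 and 401 in interstitial libraries. The defining markers Pecam1 and Cdh5 measured 0.958, 4.35 and 2.60 CPM in lining and 9.21, 8.87 and 33.0 in interstitial libraries and 1.44, 4.62 and 0.371 CPM in lining and 10.1, 9.14 and 5.01 in interstitial libraries (adjusted p = 0.0747 and 0.441). Pecam1 was called lower without D (adjusted p = 0.0408), by DESeq2 (adjusted p = 0.0096), with all 9 libraries (adjusted p = 0.0446) and with no filter (adjusted p = 0.00514). Dendritic cell markers summed to 337 to 383 CPM in lining and 479 to 563 in interstitial libraries, with 10 of 15 tested, 0 called and a median of -1.60. Without C 1 of these was higher, and without D or without F 1 was lower. DESeq2 called 3 lower, and with no filter 4 were lower and 1 higher. B and plasma cell markers summed to 71.8, 66.8 and 95.7 CPM in lining and 378, 225 and 139 in interstitial libraries, mostly from the antibody gene Ighm (68.0, 57.5 and 90.5 CPM in lining and 364, 199 and 125 in interstitial libraries), with 0 of 3 tested called by edgeR. Ighm did not overlap between groups and was called lower without D (adjusted p = 0.0200), without F (adjusted p = 9.92e-04), and without C and F together. It was also called by DESeq2 (adjusted p = 4.25e-05), by limma-voom (adjusted p = 0.0129), with all 9 libraries (adjusted p = 0.0122) and with no filter. Their part in the results was not tested.

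Fibroblast markers summed to 431 to 519 CPM in lining and 210 to 736 in interstitial libraries, and of 11 tested only Mmp2 was called, with 2 higher without F. DESeq2 and the fit with all 9 libraries also called 2 higher, and limma-voom called 2 higher and 1 lower. The collagen gene Col1a1 measured 46.9, 26.8 and 55.3 CPM in lining and 25.4, 50.8 and 45.9 in interstitial libraries (adjusted p = 0.979) and the proteoglycan gene Dcn 32.1, 30.7 and 34.1 CPM in lining and 50.4, 78.4 and 47.2 in interstitial libraries (adjusted p = 0.117). Dcn was called lower by limma-voom (log2 fold change -1.01, adjusted p = 0.0122). Of 10 nerve and Schwann cell markers 4 were tested and only S100b was called. Of the defining Schwann markers, Sox10 was at most 0.647 CPM in any library. Red cell markers were highest in D and A (421 and 162 CPM) and 13.2 to 47.5 in the other libraries, a spread within each group. T and natural killer cell markers summed to 5.27 to 18.2 CPM in lining and 9.21 to 69.1 in interstitial libraries, and Cd3e was at 0 in all but lining A. Neutrophil markers summed to 22.0 to 34.3 CPM in lining and 25.9 to 96.2 in interstitial libraries, with 1 lower without D. Without both C and F, 266 genes were higher and 139 lower, a fit added after the marker sums had been seen, and all 366 called genes kept their direction in it. As no called gene overlapped between groups, that kept direction was nearly fixed in advance.

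Some abundant genes varied more between libraries of a group than between groups. The median coefficient of variation of genes at 100 CPM or more was 12.9% over lining and 16.6% over interstitial libraries. Slc7a2, a transporter of cationic amino acids, measured 205, 90.7 and 1301 CPM in lining and 6.14, 14.8 and 1939 in interstitial libraries, high in C and F and low in the rest. Flt1, given above, had the same libraries high. Retnla, a secreted protein known from responses to interleukin 4, measured 6.71, 11.4 and 419 CPM in lining and 500.3, 221 and 1996 in interstitial libraries, with F the highest and C far above A and B. Errfi1, an inhibitor of the epidermal growth factor receptor, measured 34.0, 44.4 and 224 CPM in lining and 39.5, 66.3 and 508 in interstitial libraries. Cd74, the invariant chain of class II molecules, measured 258, 1321 and 1713 CPM in lining and 798, 1818 and 3802 in interstitial libraries, lowest in A and highest in F. Il1b, the cytokine interleukin 1 beta, measured 89.1, 193 and 414 CPM in lining and 15.3, 155 and 379.6 in interstitial libraries. The macrophage elastase Mmp12, the chemokine Ccl17, the integrin Itgax and the protease Adam8 were highest in F, at 367, 328, 404 and 665 CPM, against at most 117 CPM in D or E. Lining C was the highest of its group for each, at 37.1, 17.1, 83.8 and 161 CPM. None of these genes passed the test between groups. Without C and F together, Slc7a2 was higher in lining (log2 fold change 3.67, adjusted p = 0.0101) and Retnla lower (log2 fold change -5.21, adjusted p = 0.00181).

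**Figure D5:**
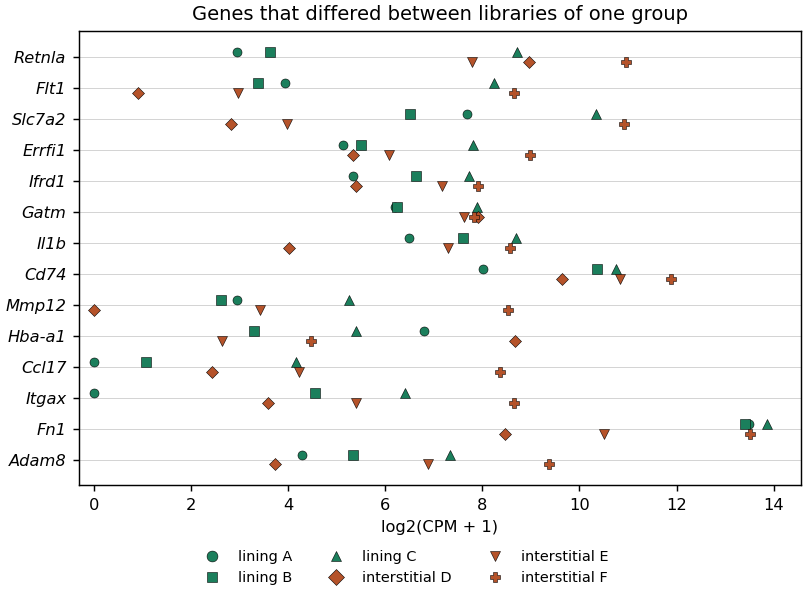
The 8 genes of at least 100 CPM with the largest coefficient of variation among the lining libraries and the 8 among the interstitial libraries (14 in all, 2 in both), as log2(CPM + 1), with each point a library. Lining C and interstitial F lie to the right for Slc7a2, Flt1 and Errfi1. Interstitial F lies furthest right for Mmp12, Ccl17 and Itgax, with C the highest lining library.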

How the data were processed

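Per the file headers, the authors deposited raw read counts per gene from featureCounts 1.6.1, run reverse-stranded on exons of Ensembl GRCm38 release 91, with no multi-mapping option in the command. Earlier steps, per the submitters' processing notes, used STAR 2.5.4a, after bcl2fastq 2.17.1.14 and cutadapt 1.15. Symbols were matched for 53274 of 53465 genes.

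The 6 sorted libraries were fitted with edgeR 4.0.16 (R 4.3.3), using filterByExpr (minimum count 10, minimum total 15), TMM scaling and robust quasi-likelihood tests of 2 group means with 4 residual degrees of freedom. Tests were 2-sided, and p-values were adjusted by Benjamini-Hochberg across every tested gene. SE was derived from the fold change and its F statistic. Alternatives used DESeq2 1.42.0 and limma 3.58.1, and the fit without C and F was added after seeing the data. The counting interval is exact and, like the floor, covers counting error only.

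The marker genes, gene lists and the rule for named genes were chosen with earlier results of these data known. The rule took the 5 label markers, then, of called protein-coding genes without overlap and with at least 10 CPM in each library of the higher group, the 12 largest fold changes in each direction. It added the 8 largest CPM differences each way and, from each biological list, up to 4 called members of smallest p and 2 abundant members that did not pass. Other genes were named after their values were seen, among them P2ry12, Lyve1, Myh15, Mctp2, Cd209f, further list members, markers of other cell types and the genes that varied within groups. A few genes are not reported here, although they stay in the fits and the list counts.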

Additional observations from a re-analysis of the deposited data

How the results depend on the processing

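All 366 called genes kept their direction in each of the 15 alternative fits in which they were tested, and 100 of the higher and 37 of the lower were called in every one. Since no called gene overlapped between groups, a kept direction was nearly fixed in advance and adds no support. The 6 fits without a library, which have fewer samples, gave 117 to 275 genes higher and 48 to 161 lower. With all 9 libraries in the fit 473 were higher and 259 lower, with limma-voom 435 and 255, with no filter 398 and 268, and with DESeq2 373 and 245. The depth term gave 177 higher and 74 lower, 177 and 72 of them among the 255 and 111. The causes were not tested. No paired analysis was possible because the labels give no shared replicate numbers, and whether libraries of the 2 fractions share animals is not given in the sources used here.

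Directions turned only for named genes that did not pass, in log2 fold change. Col1a1 ran from -0.19 without D to 0.31 without B and was -0.47 by limma-voom, -0.11 without C and F. Flt1 ran from -3.59 without C to 4.45 without F and was 0.073 by limma-voom, 1.47 without C and F. Slc7a2 ran from -2.17 without C to 5.51 without F and was 2.07 by limma-voom, 0.52 with a depth term, 3.67 without C and F. Folr2 ran from -0.13 without A to 0.52 without D. Itgb1 ran from -0.019 without A to 0.15 without B. Ptprc ran from -0.17 without C to 0.087 without A. Timd4 ran from -0.37 without F to 0.44 without D. Ccr2 ran from -0.21 without C to 0.55 without E and was -0.24 without C and F. Il1b ran from -0.38 without C to 1.38 without F. Tgfbr2 ran from -0.34 without F to 0.22 without D. Adam8 ran from -3.15 without C to 0.11 without F. Csf1r ran from -0.035 without F to 0.36 without D. Errfi1 ran from -2.38 without C to 0.89 without F. Itgax ran from -3.54 without C to 0.36 without F. Mmp12 ran from -4.47 without C to 1.54 without F and was 0.15 without C and F. P2ry12 ran from -0.15 without F to 0.43 without D and was -0.14 without C and F.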
